A study of Mus musculus with 9 samples.

Results

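Type I interferon response genes are transcripts that cells switch on when interferon alpha or beta reaches its receptor. A list of 37 of them was read by gene symbol, mapped from the files' Ensembl IDs through GENCODE M21 on GRCm38 (the source of all gene coordinates given), out of 54532 gene IDs in all. RNA was measured in 9 libraries of mouse striatum, the input station of the basal ganglia, and the series places the tissue after an ischemic stroke. The groups were 3 libraries of cGAS KO mice (Cgas deficiency), 3 of STING KO mice (Sting deficiency) and 3 of WT mice, all C57BL/6J. CRISPR-Cas9 made both deficiencies. Age, founder number and time since the stroke are unstated in the labels. The group labels name the genotype only, and none marks its libraries as injured or uninjured. The comparisons are therefore between genotypes, and none measures the response to the stroke. Replicates are not labelled as separate animals, and p-values then measure only the spread between these libraries, which may be technical.

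In this pathway cGAS detects DNA that has reached the cytosol and signals through a cyclic dinucleotide to STING, which starts transcription of the interferon genes. Secreted interferon binds the receptor made of Ifnar1 and Ifnar2, the kinases Jak1 and Tyk2 phosphorylate Stat2, which acts with Irf9 in the factor ISGF3, and this binds the interferon-stimulated response element in promoters. The products of the genes bound block viruses, sense nucleic acids, modify proteins or feed back on the pathway. In bulk tissue, fewer cells of a type and less RNA per cell cannot be told apart.

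Promoters of these genes are where ISGF3 acts, so 5 are shown, those of 3 neighbouring Ifit genes, which are classic targets, with Isg15 and Stat2. Each runs 5′ to 3′ in the direction of its gene, from 250 bases before to 50 bases after a start site, as given by RefSeq on build GRCm38.p6. For 24 of 31 promoters of the list the last 40 bases lay in a GENCODE transcript of the gene. The Stat2 window ends at 128270547, before the GENCODE start of that gene at 128270559. Capitals mark every match to GAAANNGAAA, the core of the response element, or to its reverse complement TTTCNNTTTC.
Ifit1 (chr19:34640639-34640938, plus strand): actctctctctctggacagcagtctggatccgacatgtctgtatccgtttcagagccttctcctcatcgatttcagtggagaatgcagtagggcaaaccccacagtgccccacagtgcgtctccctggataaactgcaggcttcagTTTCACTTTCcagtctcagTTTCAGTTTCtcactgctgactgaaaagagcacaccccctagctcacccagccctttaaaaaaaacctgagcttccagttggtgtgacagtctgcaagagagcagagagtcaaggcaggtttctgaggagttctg
Ifit3 (chr19:34583279-34583578, plus strand): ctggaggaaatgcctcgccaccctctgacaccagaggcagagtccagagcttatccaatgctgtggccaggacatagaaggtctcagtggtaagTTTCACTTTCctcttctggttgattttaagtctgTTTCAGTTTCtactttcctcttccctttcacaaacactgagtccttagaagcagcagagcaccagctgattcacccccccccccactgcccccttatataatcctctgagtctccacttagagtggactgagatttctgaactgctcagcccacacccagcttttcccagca
Ifit3b (chr19:34607707-34608006, plus strand): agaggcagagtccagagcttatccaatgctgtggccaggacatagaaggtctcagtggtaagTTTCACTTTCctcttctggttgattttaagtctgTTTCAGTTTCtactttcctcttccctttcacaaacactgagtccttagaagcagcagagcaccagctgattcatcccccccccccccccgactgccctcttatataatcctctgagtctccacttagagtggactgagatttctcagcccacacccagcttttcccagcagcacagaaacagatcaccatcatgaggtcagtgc
Isg15 (chr4:156200769-156201068, minus strand): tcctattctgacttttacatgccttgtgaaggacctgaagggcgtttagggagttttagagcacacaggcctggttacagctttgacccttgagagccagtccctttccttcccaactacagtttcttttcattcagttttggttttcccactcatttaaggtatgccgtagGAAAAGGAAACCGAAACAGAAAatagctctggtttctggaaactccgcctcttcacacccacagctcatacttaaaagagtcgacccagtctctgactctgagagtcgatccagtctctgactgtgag
Stat2 (chr10:128270248-128270547, plus strand): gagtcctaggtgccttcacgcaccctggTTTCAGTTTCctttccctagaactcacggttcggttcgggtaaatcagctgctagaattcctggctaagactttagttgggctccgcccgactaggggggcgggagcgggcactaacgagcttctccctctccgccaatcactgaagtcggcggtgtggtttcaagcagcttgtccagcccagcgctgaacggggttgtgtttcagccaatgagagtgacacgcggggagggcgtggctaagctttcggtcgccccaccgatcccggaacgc
RefSeq promoters were matched for 27 of the 37 genes. The core was present for 15 of these 27 genes (55.6%) and for 1079 of all 27025 genes in the table (3.99%). A match describes the letters and is not a measured binding site. The Ifit3 and Ifit3b promoters share an unbroken stretch of 169 bases that holds both matches of each, and the 3 matches of Isg15 overlap each other. The other genes with the core were Rsad2, Oas1a, Oas3, Bst2, Ifih1, Ddx58, Ifi207, Ifitm3, Trim30a and Eif2ak2. Genes with the response element core had a median mean level of 2.73 CPM (counts scaled by library total and TMM factor) in this striatum, from 0.0336 to 28.6 CPM, and the 12 without it had a median of 3.9997 CPM, from 0.0803 to 23.9 CPM.

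**Figure D1:**
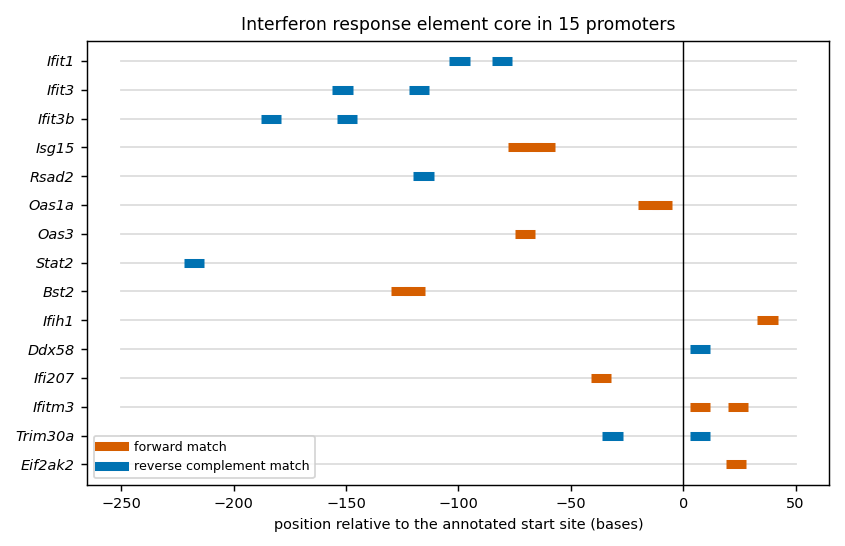
Positions of the response element core in the promoters of 15 interferon response genes. The x axis is the distance in bases from the annotated start site, grey lines span the 300 bases searched, and colour gives the orientation of the match. Longer bars (Isg15, Oas1a and Bst2) are overlapping matches, and the matches of Trim30a come from 2 start sites.

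Library totals were 14129021 to 21286775 counts, and a floor of 3 counts was 0.141 to 0.212 CPM by library total alone, without the TMM factor. Cgas, the gene targeted in cGAS KO, was at 1.101, 0.377 and 0.262 CPM there, compared with 1.398, 2.63 and 3.18 CPM in WT. Sting1 was at 2.17, 1.04 and 1.84 CPM in STING KO, compared with 4.06, 3.002 and 1.34 CPM in WT, and these groups overlapped. A CRISPR-Cas9 knockout can leave a transcript behind, so gene counts check the genotypes weakly. One library of each group stood apart (cGAS KO 2, STING KO 2 and WT 3, named by group and replicate), with 2280 to 4723 genes at 1 to 9 counts where the other 6 had 7096 to 7927. These 3 were picked as the lowest in that number. They also had the smallest totals, 14129021 to 14627748 counts, where the other 6 had 15572655 to 21286775. The 15 microglia markers, all detected, summed to 338 to 388 CPM in those 3 libraries and 498 to 643 CPM in the other 6, and their part in the results was not tested. All 14 markers of striatal medium spiny neurons were detected, summing to 5946 CPM in WT 3 and to 9671 to 11988 CPM elsewhere.

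Every one of the 37 genes had a count in at least 4 of the 9 libraries, 28 had one in every library and 26 had 3 or more in every library. Together the 37 took 0.0150% to 0.0198% of a library's counts. The rarest were Oas3 with 5 counts over all libraries, Oasl1 with 13, Ifi204 with 25, Mx1 with 28 and Ifi207 with 33. These 5 did not pass the filter on low counts, which left 32 genes for the tests. By mean CPM, 4 genes were at 10 or more (Stat2, Cmpk2, Irf9 and Lgals3bp), 6 between 5 and 10, 16 between 1 and 5 and 11 under 1. Between genes, levels can be compared per kilobase of annotated exon, and on that scale Ifitm3 came first with a mean of 6.79 CPM per kilobase. Cmpk2 (5.74 CPM per kilobase), Stat2 (4.83) and Lgals3bp (4.43) came next, then Ifit3 (2.85), and Oas3 was last (0.00475).

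**Figure D2:**
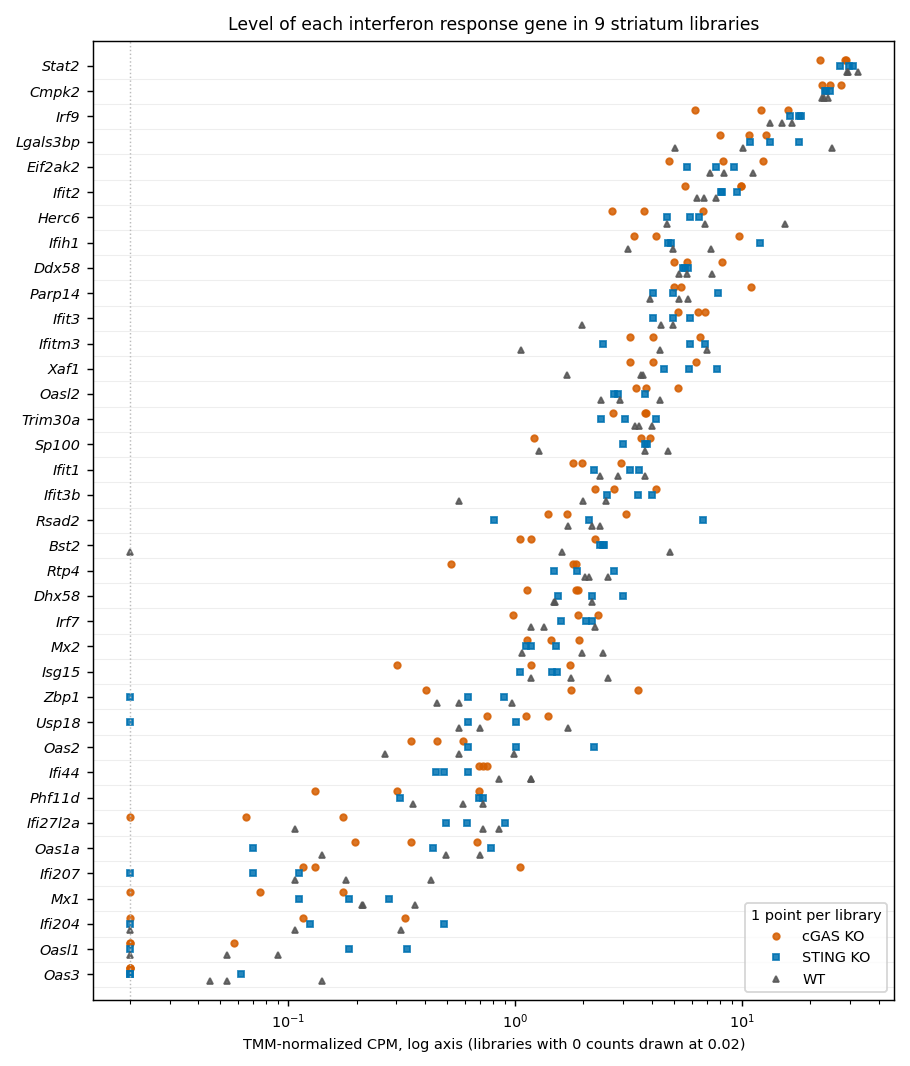
Level of the 37 genes in each of 9 libraries, in TMM-scaled CPM on a log axis, with 1 point per library and rows ordered by mean level. Libraries with 0 counts are drawn at 0.02 CPM. Levels run from 22.003 to 32.5 CPM for Stat2 to 0 to 0.141 CPM for Oas3, and the points of the 3 genotypes overlap in most rows.

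The ligands were close to absent. Of 18 type I interferon genes, 13 had 0 counts in all 9 libraries, Ifnb1 among them. This allows up to 0.141 to 0.212 CPM in a library, by library total without the TMM factor. The other 5 had 33 counts altogether and at most 11 in a library, and none could be tested. The receptor chains and receptor kinases had counts in every library, though not every signalling gene did. Jak1, the receptor kinase, was at 134, 135 and 153 CPM in cGAS KO, 135, 104 and 137 CPM in STING KO and 126, 151 and 158 CPM in WT. Of 14 genes of the receptor and JAK-STAT signalling, all tested, edgeR's quasi-likelihood test with Benjamini-Hochberg adjustment called 0 in each of the 3 comparisons, and 0 had an unadjusted p under 0.05. Their median log2 fold change was -0.01 in cGAS KO and 0.08 in STING KO, both against WT. Socs1, an inhibitor of the kinases, was low, at 0.869, 0.754 and 0.392 CPM in cGAS KO, 0.497, 1.46 and 0.279 CPM in STING KO and 0.676, 0.161 and 0 CPM in WT. Ifnar1, a receptor chain named for its role after its values were seen, also overlapped between genotypes. It was at 46.6, 61.04 and 53.8 CPM in cGAS KO, 52.1, 70.4 and 46.3 CPM in STING KO and 49.1, 52.8 and 71.3 CPM in WT.

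In cGAS KO striatum no interferon response gene passed the test against WT. The smallest p belonged to Ifi27l2a and Herc6, with negative log2 fold changes and overlapping libraries, and to Ifit3, with a positive one and none overlapping. Stat2 averaged 26.4 ± 3.79 CPM in cGAS KO, compared with 30.3 ± 1.84 CPM in WT (SD, 3 libraries each). Of the 32 genes tested, 13 had a positive log2 fold change where 48.5% of all genes did, and their median was -0.09 where that of all 17821 genes was -0.01. edgeR's quasi-likelihood test with Benjamini-Hochberg adjustment called 0 of the 32, as of all genes (0%), and their lowest adjusted p was 0.9999. The unadjusted edgeR p was under 0.05 for 1 of the 32, Ifi27l2a, and for 2.03% of all genes. DESeq2 called 0 of the 37 genes, with 2 at an unadjusted p under 0.05, and limma-voom 0 of 32, with 0. One gene, Ifit3, lay wholly above WT (4% of all genes did) and 3, Rtp4, Stat2 and Ifi44, lay wholly below (4% of all genes), in all 12.5% of the 32 against 8%. The median was 0.06 without WT 1 and -0.14 without the libraries that stand apart.

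In STING KO striatum, too, no gene of the list passed the test against WT. Xaf1 and Ifit3b had the highest values relative to WT among genes with the smallest p, and Ifi44 the lowest. Of the 32 genes, 19 had a positive log2 fold change where 49.4% of all genes did, with a median of 0.05 and -0.00 over all genes. edgeR's quasi-likelihood test with Benjamini-Hochberg adjustment called 0 of the 32 and 0 of all genes (0%), with a lowest adjusted p of 0.9998 among the 32. The unadjusted edgeR p was under 0.05 for Xaf1 alone among the 32, and for 1.63% of all genes. DESeq2 called 0 of 37 and limma-voom 0 of 32, with 1 gene each at an unadjusted p under 0.05. Xaf1, Ifit3b and Ifit2 lay wholly above WT (3.4% of all genes did) and Ifi44 wholly below (3.67%), in all 12.5% of the 32 against 7.07%. The median was 0.24 without WT 1, -0.07 without WT 3 and -0.03 without the libraries that stand apart. Both comparisons share the WT libraries.

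Set directly against each other, STING KO and cGAS KO gave no gene of the list past the test. The smallest p belonged to Ifi27l2a, Oas2 and Irf9, each higher in value in STING KO. Of the 32 genes, 21 had a positive log2 fold change where 51.1% of all genes did, with a median of 0.15 and 0.01 over all genes. edgeR's quasi-likelihood test with Benjamini-Hochberg adjustment called 0 of the 32 and 0 of all genes (0%), with a lowest adjusted p of 0.999996 among the 32. The unadjusted edgeR p was under 0.05 for 1 of the 32, Ifi27l2a, and for 1.45% of all genes. DESeq2 called 0 of 37 and limma-voom 0 of 32, with 1 gene each at an unadjusted p under 0.05. Ifi27l2a, Oas2, Irf9 and Bst2 lay wholly above cGAS KO (3.63% of all genes did) and Ifi44 wholly below (3.72%), in all 15.6% of the 32 against 7.35%. Without the libraries that stand apart the median was 0.01.

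**Figure D3:**
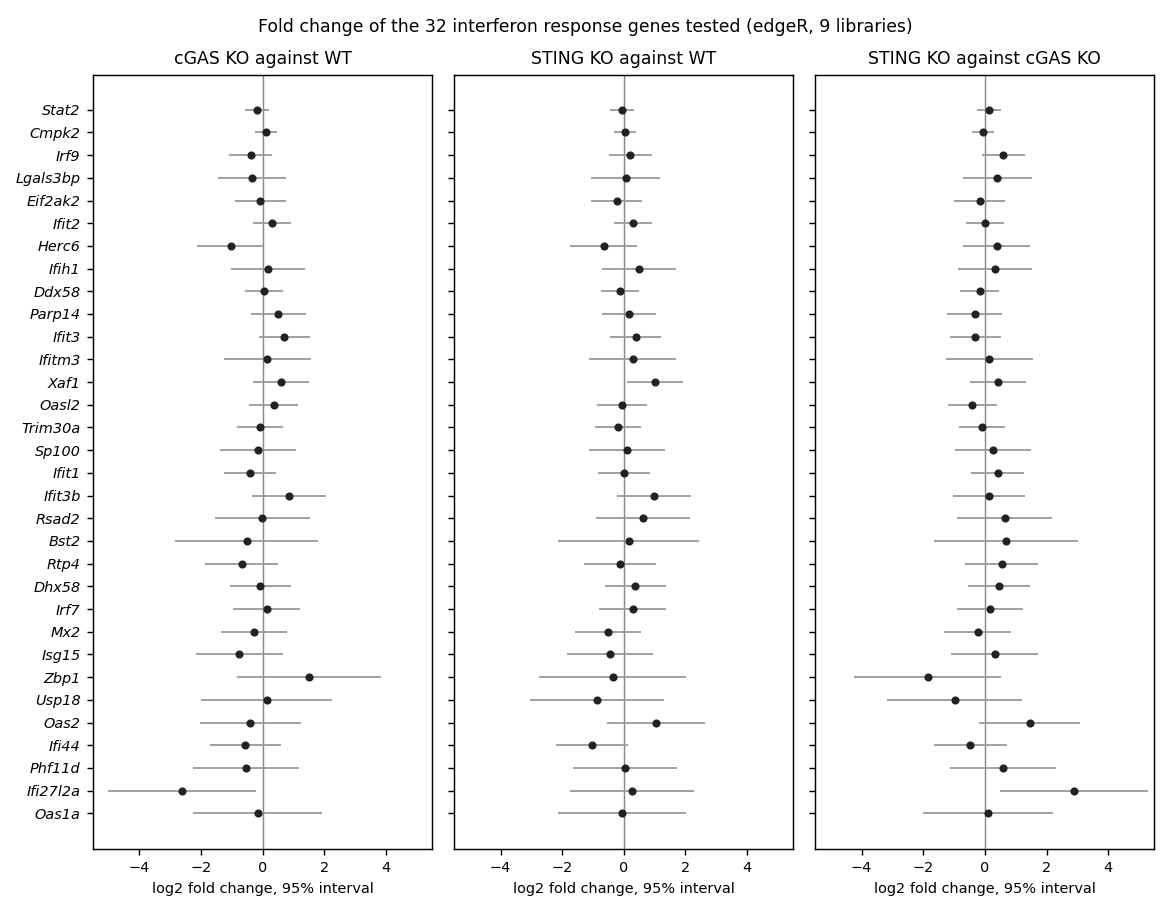
Log2 fold change (x axis) of the 32 genes tested, with 95% intervals from edgeR's fit over 9 libraries, for 3 comparisons, with rows ordered by mean level. Intervals are narrow for Stat2 and Cmpk2 and wide for genes of few counts such as Ifi27l2a and Zbp1. They exclude 0 for Ifi27l2a in the left and right panels and for Xaf1 in the middle one.

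A p that misses the threshold does not show that levels were alike, and how narrowly a difference was bounded varied by gene. For 5 of the 32 genes, Cmpk2, Stat2, Ddx58, Ifit2 and Trim30a, the 95% interval lay within a log2 fold change of -1 to 1 in all 3 comparisons. For the other 27 a change of 2-fold lay inside the interval in at least 1 comparison. The list was lowly expressed, with a median level of 2.98 CPM where all genes tested had 14.4, and its median SD within groups, on the log2(CPM + 0.5) scale, was 0.448 against 0.403. By role, positive log2 fold changes against WT numbered 1 of 3 in cGAS KO (median -0.20) and 2 of 3 in STING KO (median 0.22) for the transcription factors, 3 of 4 in cGAS KO (median 0.10) and 2 of 4 in STING KO (median 0.13) for the sensors and 3 of 4 in cGAS KO (median 0.49) and 4 of 4 in STING KO (median 0.35) for the IFIT genes. They numbered 1 of 3 in cGAS KO (median -0.76) and 0 of 3 in STING KO (median -0.66) for ISG15 conjugation, 1 of 3 in cGAS KO (median -0.16) and 1 of 3 in STING KO (median -0.05) for the OAS family, 2 of 7 in cGAS KO (median -0.07) and 4 of 7 in STING KO (median 0.03) for the other antiviral effectors and 2 of 8 in cGAS KO (median -0.45) and 6 of 8 in STING KO (median 0.08) for the remaining genes. Of all genes 48.5% and 49.4% were positive in these comparisons, which share the WT libraries, and no role had a gene past the test.

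Among the transcription factors, Stat2 (ENSMUSG00000040033, chr10:128270559-128292849, plus strand), the interferon-specific STAT, had the highest level. It was at 28.7, 22.003 and 28.4 CPM in cGAS KO, 29.5, 27.1 and 30.98 CPM in STING KO and 32.5, 29.4 and 29.2 CPM in WT. The cGAS KO libraries lay just below WT, and STING KO overlapped both. Log2 fold changes were -0.20 (SE 0.17) with a 95% interval of -0.59 to 0.19 in cGAS KO against WT, -0.06 (SE 0.17) in STING KO against WT and 0.15 (SE 0.17) between the knockouts. Irf9 (ENSMUSG00000002325, chr14:55603571-55610030, plus strand), the DNA-binding subunit of ISGF3, was at 15.99, 6.18 and 12.1 CPM in cGAS KO, 17.8, 16.2 and 18.2 CPM in STING KO and 16.6, 14.96 and 13.4 CPM in WT. Its lowest library was cGAS KO 2, which stands apart. STING KO against cGAS KO gave 0.60 (SE 0.31) on the log2 scale (edgeR unadjusted p = 0.0825), and 0.30 without cGAS KO 2. Against WT the values were -0.39 (SE 0.31) for cGAS KO and 0.22 (SE 0.31) for STING KO. Irf7, which amplifies interferon transcription, overlapped throughout, at 2.32, 0.9796 and 1.897 CPM in cGAS KO, 2.05, 1.601 and 2.18 CPM in STING KO and 2.25, 1.18 and 1.34 CPM in WT.

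Of the nucleic acid sensors, Ifih1 (MDA5, for long double-stranded RNA) was at 4.17, 9.72 and 3.34 CPM in cGAS KO, 4.84, 12.04 and 4.74 CPM in STING KO and 3.16, 4.99 and 7.28 CPM in WT. In each genotype its highest library was the one that stands apart. Ddx58 (RIG-I, for uncapped RNA ends) ran from 5.04 to 8.18 CPM and Dhx58 (LGP2, a regulator of both) from 1.13 to 2.99 CPM over the 9 libraries, and the genotypes overlapped. Zbp1, which senses Z-form nucleic acid and can start necroptosis, had 7, 46 and 27 counts in cGAS KO, 10, 0 and 16 in STING KO and 10, 18 and 8 in WT libraries. Its highest count was in cGAS KO 2 and its lowest in STING KO 2, both of which stand apart. Ifi204 and Ifi207, of the family of DNA-binding PYHIN proteins, had at most 7 and 14 counts in a library.

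The IFIT genes, whose products bind viral RNA, gave no gene past the test. Ifit3 (ENSMUSG00000074896, chr19:34583531-34588731, plus strand), a partner of other IFIT proteins, was at 5.21, 6.86 and 6.41 CPM in cGAS KO, 4.97, 4.04 and 5.92 CPM in STING KO and 4.96, 4.396 and 1.98 CPM in WT. All cGAS KO libraries lay above all WT libraries, with a log2 fold change of 0.70 (SE 0.37, edgeR unadjusted p = 0.09096), which was 0.31 without the libraries that stand apart. Ifit3b (chr19:34607970-34613401), its paralog, was at 2.72, 2.26 and 4.19 CPM in cGAS KO, 2.55, 3.48 and 4.02 CPM in STING KO and 1.98, 2.52 and 0.565 CPM in WT. STING KO lay just above WT, at 0.97 (SE 0.53), and at 0.55 without the libraries that stand apart. The lowest library of both genes was WT 3. They share a part of their sequence, since 18.5% of the 150-base windows of Ifit3 transcripts also occur in Ifit3b, and 16.0% the other way. Reads from that part may be split between them.

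Ifit2 (chr19:34550694-34576419), which promotes apoptosis, was at 5.62, 9.87 and 9.94 CPM in cGAS KO, 8.07, 9.46 and 8.15 CPM in STING KO and 6.36, 7.67 and 6.78 CPM in WT. STING KO lay above every WT library, at a log2 fold change of 0.30 (SE 0.27), while cGAS KO 1 was the lowest library of all. Ifit1, which binds RNA lacking the host's cap methylation, was at 1.796, 2.94 and 1.96 CPM in cGAS KO, 2.23, 3.201 and 3.52 CPM in STING KO and 2.84, 2.36 and 3.74 CPM in WT, with overlap. These levels stand beside Ifit promoters that differ in the core: Ifit1, Ifit3 and Ifit3b hold an exact match and the Ifit2 windows searched do not.

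ISG15 is a ubiquitin-like protein that is attached to others. Isg15 was at 1.74, 0.301 and 1.18 CPM in cGAS KO, 1.06, 1.53 and 1.45 CPM in STING KO and 2.57, 1.18 and 1.77 CPM in WT, lowest in cGAS KO 2. Herc6 (ENSMUSG00000029798, chr6:57581000-57664632, plus strand), the main ligase for ISG15 in mice, was at 3.71, 6.71 and 2.68 CPM in cGAS KO, 6.46, 5.92 and 4.69 CPM in STING KO and 4.69, 6.86 and 15.5 CPM in WT. The groups overlapped and WT 3 stood far above the rest. Against WT the log2 fold change of cGAS KO was -1.04 (SE 0.49, edgeR unadjusted p = 0.0591) and -0.41 without WT 3. Without the libraries that stand apart it was -0.85 (edgeR unadjusted p = 0.0282, edgeR adjusted p = 0.971). Herc6 shares 13.7% of its exonic bases with another annotated gene, so its counts are uncertain. Usp18, which removes ISG15 and dampens the receptor, had 24, 10 and 17 counts in cGAS KO, 10, 0 and 18 in STING KO and 38, 13 and 8 in WT libraries.

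The OAS enzymes make the oligoadenylates that activate RNase L. Oas2 (chr5:120730333-120749853) was at 0.621, 2.23 and 1.005 CPM in STING KO, 0.348, 0.452 and 0.589 CPM in cGAS KO and 0.992, 0.268 and 0.565 CPM in WT. Every STING KO library lay above every cGAS KO library, but narrowly, at 10 to 32 counts in STING KO and 6 to 9 in cGAS KO. The log2 fold change was 1.46 (SE 0.73, edgeR unadjusted p = 0.0744), and 0.81 without STING KO 2, the highest library. Oasl2, an OAS-like protein, ran from 2.402 to 5.199 CPM and Oas1a from 0.0696 to 0.781 CPM, and 32.4% of the 150-base windows of Oas1a also occur in Oas1g.

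Cmpk2 (ENSMUSG00000020638, chr12:26469204-26479837, plus strand), a mitochondrial nucleotide kinase, was the steadiest of the 32 genes, with an SD of 0.0859 within groups on the log2(CPM + 0.5) scale. It was at 24.6, 22.5 and 27.3 CPM in cGAS KO, 24.4, 23.5 and 23.2 CPM in STING KO and 23.9, 22.998 and 22.5 CPM in WT. Against WT its log2 fold change was 0.10 (95% interval -0.26 to 0.46) in cGAS KO and 0.03 (-0.33 to 0.40) in STING KO. Its neighbour Rsad2 (viperin), which makes a chain-ending nucleotide, was less even, at 1.39, 3.09 and 1.701 CPM in cGAS KO, 0.807, 6.75 and 2.12 CPM in STING KO and 1.71, 2.36 and 2.19 CPM in WT, highest in STING KO 2. Eif2ak2 (chr17:78852564-78882573), the kinase PKR that halts translation on double-stranded RNA, was at 4.75, 12.4 and 8.24 CPM in cGAS KO, 5.71, 9.26 and 7.65 CPM in STING KO and 7.21, 8.31 and 11.2 CPM in WT. In each genotype the highest library was the one that stands apart. Log2 fold changes against WT were -0.07 (SE 0.37) in cGAS KO, 0.22 without cGAS KO 1 and 0.12 without WT 3, and -0.24 (SE 0.37) in STING KO.

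Bst2 (tetherin, which holds budding virus on the cell) had the widest spread of the 32 genes, an SD of 1.03 on the same scale. It was at 2.26, 1.05 and 1.18 CPM in cGAS KO, 2.36, 2.44 and 2.46 CPM in STING KO and 4.82, 1.61 and 0 CPM in WT, with 107 counts in WT 1 and 0 in WT 3. STING KO lay just above cGAS KO, and WT spanned both. Ifitm3, which blocks virus entry, was at 6.55, 4.07 and 3.205 CPM in cGAS KO, 6.89, 2.44 and 5.92 CPM in STING KO and 6.99, 4.34 and 1.06 CPM in WT, again lowest in WT 3. Mx2, of a family of antiviral GTPases but annotated in GENCODE as a polymorphic pseudogene, ran from 1.07 to 2.43 CPM and Trim30a, a RING-domain protein, from 2.4 to 4.18 CPM, and Mx1 had at most 8 counts in a library.

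Among the remaining genes, Ifi27l2a (ENSMUSG00000079017, chr12:103442167-103443680, minus strand), a small membrane protein, had 3, 0 and 1 counts in cGAS KO, 8, 13 and 11 in STING KO and 16, 2 and 12 in WT libraries. cGAS KO lay below all STING KO libraries and overlapped WT through WT 2. Its log2 fold change was -2.62 (SE 1.07) in cGAS KO against WT (edgeR unadjusted p = 0.0351) and 2.88 (SE 1.07) for STING KO over cGAS KO (edgeR unadjusted p = 0.0231), values that rest on 4 counts in cGAS KO altogether. These were -3.74 and 4.01 without cGAS KO 1, and -2.12 and 2.39 without cGAS KO 2, the ends of their ranges when each library was left out. Without the libraries that stand apart they were -1.75 (edgeR unadjusted p = 0.125) and 2.12 (edgeR unadjusted p = 0.0681). Xaf1 (ENSMUSG00000040483, chr11:72301629-72313733, plus strand), which opposes the caspase inhibitor XIAP, was at 4.05, 6.25 and 3.205 CPM in cGAS KO, 4.53, 5.85 and 7.76 CPM in STING KO and 3.65, 3.59 and 1.695 CPM in WT. Every STING KO library lay above every WT library, with a log2 fold change of 1.01 (SE 0.41, edgeR unadjusted p = 0.0341), and of 0.76 without the libraries that stand apart, where the adjusted p of edgeR's quasi-likelihood test was 0.7103. Ifi44 (ENSMUSG00000028037, chr3:151730922-151749960, minus strand), a cytoplasmic protein, was at 0.695, 0.754 and 0.719 CPM in cGAS KO, 0.621, 0.487 and 0.447 CPM in STING KO and 1.17, 1.18 and 0.848 CPM in WT. Both knockouts lay below WT and STING KO lay below cGAS KO, at only 7 to 26 counts in a library. Its log2 fold change against WT was -0.56 (SE 0.51) in cGAS KO and -1.04 (SE 0.52, edgeR unadjusted p = 0.0766) in STING KO. Without the libraries that stand apart the cGAS KO value was -0.73 (edgeR unadjusted p = 0.145). The STING KO value was then -1.14 (edgeR unadjusted p = 0.0395, edgeR adjusted p = 0.701).

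Lgals3bp (ENSMUSG00000033880, chr11:118392751-118402092, minus strand), a secreted glycoprotein, was at 12.7, 7.99 and 10.8 CPM in cGAS KO, 10.8, 17.8 and 13.2 CPM in STING KO and 24.9, 10.1 and 5.09 CPM in WT, where WT 1 was the highest and WT 3 the lowest of all 9. Against WT its log2 fold change was -0.35 (SE 0.50) in cGAS KO and 0.06 (SE 0.49) in STING KO. Without WT 1 these were 0.47 and 0.88, and without the libraries that stand apart the STING KO value was -0.55, so the direction turned with single libraries. Within genotypes, the highest level was in WT 1 for 18 of the 32 genes (56.2%), against 36.4% of all genes. It was in STING KO 3 for 17 (53.1%), against 23.2% of all genes, and in STING KO 1 for 4 (12.5%), against 34.5%. In cGAS KO it was in replicate 1 for 14 (43.8%), against 39.2%. WT 1 was also high in 10 choroid plexus and ependymal markers, all detected, with a sum of 2767 CPM where the other 8 libraries had 37.2 to 479 CPM, and their part in the results was not tested. Parp14, an ADP-ribosyltransferase, ran from 5.04 to 10.9 CPM in cGAS KO, 4.07 to 7.86 CPM in STING KO and 3.91 to 5.79 CPM in WT. Rtp4, a receptor chaperone, was at 1.85, 1.81 and 0.523 CPM in cGAS KO, below the 2.57, 2.04 and 2.12 CPM of WT, with STING KO at 1.49 to 2.73 CPM overlapping both, and it shares 13.9% of its exonic bases with another annotated gene. Sp100, of nuclear bodies, ran from 1.21 to 4.73 CPM and Phf11d from 0.131 to 0.726 CPM.

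**Figure D4:**
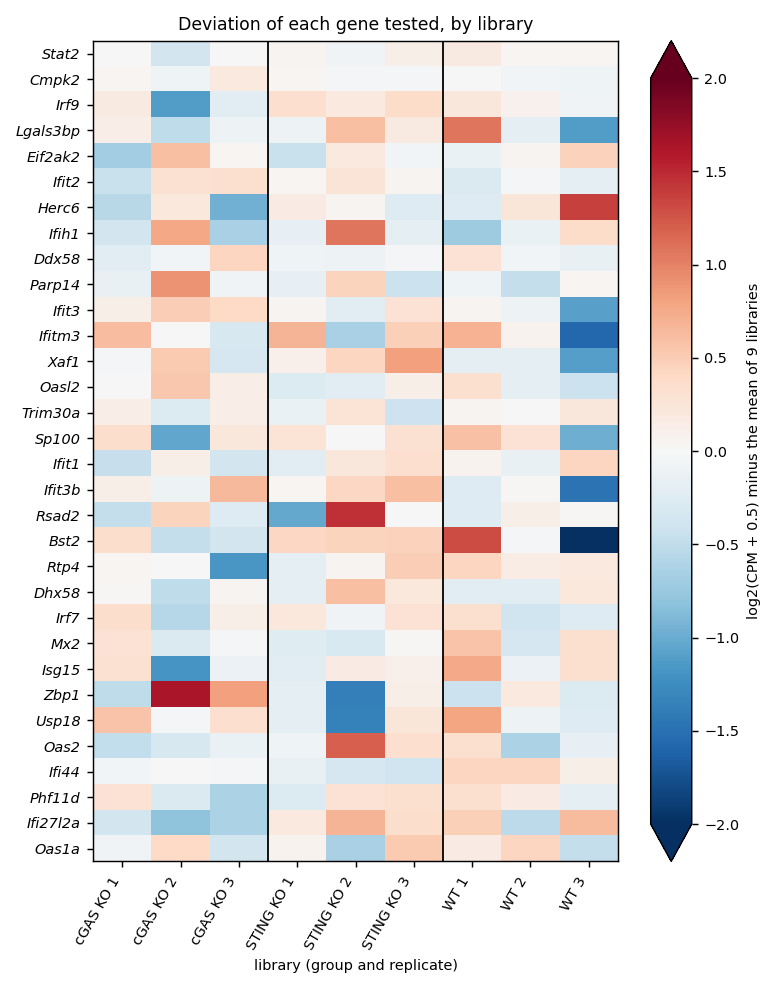
Deviation of the 32 genes tested from their own mean over 9 libraries, on the log2(CPM + 0.5) scale, with libraries in columns by group and rows ordered by mean level. Red is above and blue below the mean. Stat2 and Cmpk2 stay pale, while Bst2, Lgals3bp and Ifitm3 run from red in WT 1 to blue in WT 3.

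A further 61 interferon-stimulated genes outside the list gave 0 calls among the 46 tested in each comparison by edgeR's quasi-likelihood test with Benjamini-Hochberg adjustment. The unadjusted p was under 0.05 for 1 when cGAS KO was set against WT (2.03% of all genes), for 0 with STING KO against WT (1.63%) and for 1 between the knockouts (1.45%). Their medians against WT were 0.00 in cGAS KO and 0.03 in STING KO, with 24 positive and 22 negative values in both, where 48.5% and 49.4% of all genes were positive. Adar, the editor of adenosine in double-stranded RNA, was at 132, 164 and 166 CPM in cGAS KO, 156, 163 and 147 CPM in STING KO and 128, 145 and 217 CPM in WT, which overlapped. Pnpt1, an RNA-degrading enzyme of mitochondria, had 18.5, 12.7 and 14.5 CPM in cGAS KO, 22.3, 25.5 and 21.99 CPM in STING KO and 22.5, 25.7 and 27.1 CPM in WT, with cGAS KO below every other library. Against WT the log2 fold change of cGAS KO was -0.72 (SE 0.20, edgeR unadjusted p = 0.00539). Of 15 markers of infiltrating leukocytes, 12 never passed 9 counts in a library, and Nkg7 was at 0 in all.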

How the data were processed

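Per the labels' protocols, libraries of polyadenylated striatum RNA were read as pairs of 150 bases on an Illumina HiSeq. The submitters' processing notes name HISAT2, featureCounts and mm10. Their versions, annotation, strand setting and handling of multiply matching reads are unstated. The authors deposited raw counts per Ensembl gene, 1 table per sample. IDs were mapped to symbols through GENCODE M21 (GRCm38), which matched 54495 of 54532.

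The main test was edgeR's quasi-likelihood F test (version 4.0.16, R 4.3.3), fitting the 9 libraries together with TMM scaling. filterByExpr kept 17821 genes, over which p-values were adjusted by Benjamini-Hochberg at a threshold of 0.05. SEs were derived from the fold change and F statistic. Library depth of 14129021 to 21286775 counts sets the floors, which cover counting error only. The code was tested on simulated counts, with changes set in genes of at least 5 CPM, a level most of the list did not reach. Of 2-fold changes it called 10% for cGAS KO against WT, 8% for STING KO against WT and 5% between the knockouts. Of 4-fold changes it called 73%, 71% and 73%, so most 2-fold changes would be missed. Alternatives were DESeq2 1.42.0, limma-voom (limma 3.58.1), other scalings and filters, fits of 6 libraries, the replicate number as a block, and fits without each library or without the 3 that stand apart. Full statistics were given for the 3 genes of smallest p in a comparison, for genes of at least 5 CPM whose groups did not overlap and for the 5 of highest mean CPM. In the other lists, genes named were among the 2 of highest mean CPM and the 2 of smallest p against WT, and exceptions are stated. An item of the signalling list is not reported here. The members and lists were chosen with earlier results of these data known. Libraries within a group differed by more than sampling noise (chi-square per degree of freedom of at least 7.95).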

Additional observations from a re-analysis of the deposited data

How the results depend on the processing

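Under each of 19 alternatives 0 genes of the list were called in every comparison, with 0 to 2 at an unadjusted p under 0.05. Over all genes, DESeq2 without a count filter called 1 in cGAS KO against WT, 10 in STING KO against WT and 8 between the knockouts, STING KO over cGAS KO. edgeR without a count filter called 4 and 4 in the last 2 of these, and without the libraries that stand apart 4 and 3. Leaving out each library, the list's median ran from -0.19 to 0.0635 in cGAS KO against WT, from -0.0664 to 0.24 in STING KO against WT, and from 0.09 to 0.25 between the knockouts, where it was 0.0146 without the libraries that stand apart. Of 451 alternative fold changes of the genes given full statistics, 439 kept their direction and 12 changed sign, and the cause was not tested. For cGAS KO against WT these were Eif2ak2 (-0.44 to 0.22 leaving out each library) and Lgals3bp (-0.73 to 0.47). For STING KO against WT they were Lgals3bp (-0.33 to 0.88, and -0.55 without the libraries that stand apart) and Stat2 (-0.10 to 0.00447). For STING KO against cGAS KO they were Eif2ak2 (-0.45 to 0.21, and 0.0442 without the libraries that stand apart) and Cmpk2 (-0.14 to 0.00808, and 0.0118 with library totals only). Deviations of same-numbered libraries correlated from -0.53 to 0.57, over 0.1 in 4 of 9 pairs. Among the libraries that stand apart, cGAS KO 2 correlated better with WT 3 (0.60) than with WT 2 (-0.48). These values cannot decide whether replicate numbers pair the libraries, since a library of each group stands apart. With the replicate block 0 genes of the list and 0 of all genes were called, and the medians were -0.12, 0.12 and 0.24. Depth limits the genes under 1 CPM, which had at most 38 counts in a library.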
